A study of Homo sapiens with 5 samples.

Results

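BXPC3, an established epithelial line from a human pancreatic adenocarcinoma, was exposed to an siRNA that targets the coding frame of LYNX1 (ORF siRNA) and compared with the same line exposed to a control siRNA. Each of these groups was measured on 1 Illumina BeadChip array. Both were given 200 nM siRNA with 14 µl of Xtreme gene9, added 24 h after seeding, and RNA was taken 72 h later from cells grown in RPMI-1640 with 10% fetal bovine serum. The study also holds 3 arrays of Miapaca, another pancreatic cancer line, with the ORF siRNA, an siRNA against the LYNX1 3′ untranslated region (3UTR siRNA) or the control siRNA, all at 60 pM by the labels and with 4 µl of lipofectamine RNAiMAX. Genes entered the BXPC3 comparison when their probe had a detection p-value under 0.01 on at least 1 of the 2 BXPC3 arrays. This held for 11252 of the 20043 genes named on the array, and 9810 of them were detected on both arrays. With 1 array per group no difference has an error estimate or a test, so what follows is a description of these 2 arrays.

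An siRNA is loaded into an Argonaute protein, whose guide strand leads to cleavage of a matching transcript. The same strand can also lower other transcripts that pair only with its seed bases. LYNX1 is a small membrane-anchored protein of the Ly6 family that binds nicotinic acetylcholine receptors and dampens their response to acetylcholine. Receptors of this class are cation channels, and several of their subunits are made outside the nervous system, also in pancreatic cancer cells.

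The target itself could not be followed. Neither of the 2 LYNX1 probes passed detection on a BXPC3 array. The first read a mean bead intensity of 104 with the ORF siRNA, against 91.0 with the control siRNA, and the other 106, against 93.0. The fitted background of these arrays was 96.2 with the ORF siRNA and 94.1 with the control siRNA, so both readings of LYNX1 lay near it. SLURP2, a Ly6 protein encoded beside LYNX1, was detected on the control array alone. Of 14 nicotinic subunit genes on the array, 4 were measured. The brightest was CHRNA5, the α5 subunit, with a normalised intensity of 418 with the ORF siRNA, against 334 with the control siRNA, a log2 difference of 0.32. Its other probe gave −0.45, so the 2 probes of CHRNA5 went opposite ways. The β1 subunit gene CHRNB1 stood at 0.29 and the α2 subunit gene CHRNA2 at −0.48, and both passed detection on both arrays. CHRNA10 was detected with the control siRNA alone.

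The cells looked like the line on the label. All 11 epithelial markers on the array, among them CDH1 (E-cadherin), EPCAM and the keratin KRT19, were detected on the ORF siRNA array and 10 on the control array. SMAD4, a TGF-β mediator that BXPC3 is known to have lost, was detected on neither BXPC3 array and on all Miapaca arrays. Of 19 fibroblast, endothelial and blood cell markers 4 were measured, and their summed normalised intensity over all 19 was 864 with the ORF siRNA, against 970 with the control siRNA, beside 21043 and 19752 for the 11 epithelial markers. PTPRC, CD3E, HBB, PECAM1, VWF and DCN were detected on neither BXPC3 array. Mean bead intensity was 361 with the ORF siRNA and 366 with the control siRNA, and 17689 and 18205 probes were detected. The background of the ORF siRNA array varied more, at an SD of 7.94, against 5.50 on the control array.

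The arrays differed by little. Over the genes detected on both BXPC3 arrays the median absolute log2 difference was 0.18, and 92.6% of genes lay within 1.5-fold. At least 2-fold higher with the ORF siRNA were 71 genes, 0.631% of those measured, and at least 2-fold lower were 52, or 0.462%, which together make 1.09%. At 1.5-fold the counts were 579 higher (5.15%) and 548 lower (4.87%). With median scaling in place of quantile normalization the median of all genes moved to −0.11 and the 2-fold split became 44 higher and 90 lower, so the balance of higher and lower genes depends on the scaling. Of the 123 genes past 2-fold, 66 were detected on both arrays. A further 56 were detected on 1 array alone and have only a lower bound, and for 1 gene, TELO2, the brighter array was the undetected one. The 123 genes were also dim, with a median normalised intensity of 53.5 over the 2 arrays, beside 161 for all genes measured.

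The standard deviation of the log2 differences was 0.35 in BXPC3 with the ORF siRNA, beside 0.64 in Miapaca with the same siRNA and 0.59 with the 3UTR siRNA. Over the 8449 genes detected on all 4 arrays of the ORF siRNA comparisons it was 0.30 in BXPC3 and 0.62 in Miapaca, and 72.8% of these genes had the larger absolute difference in Miapaca. The spread in BXPC3 narrowed with signal. With genes split by signal into 5 equal bins it was 0.39 in the dimmest and 0.22 in the brightest. In Miapaca the spread was 0.62 in the dimmest bin, widest at 0.71 in the middle bin, and 0.50 in the brightest. Past 2-fold in the brightest bin were 3 higher and 1 lower gene in BXPC3, against 42 and 55 in Miapaca. Dose, transfection reagent and medium also differed between the lines, and the part of each in this contrast cannot be told apart. Both Miapaca spreads, 0.64 and 0.59, rest on the same control array, which was brighter than the arrays it was compared with. Its mean bead intensity was 463, against 355 (ORF) and 343 (3UTR), and its fitted background 99.5, against 92.4 on each. The BXPC3 arrays were closer, at 361 (ORF) and 366 (control). Whether this mismatch widened the Miapaca spreads was not tested.

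**Figure D1:**
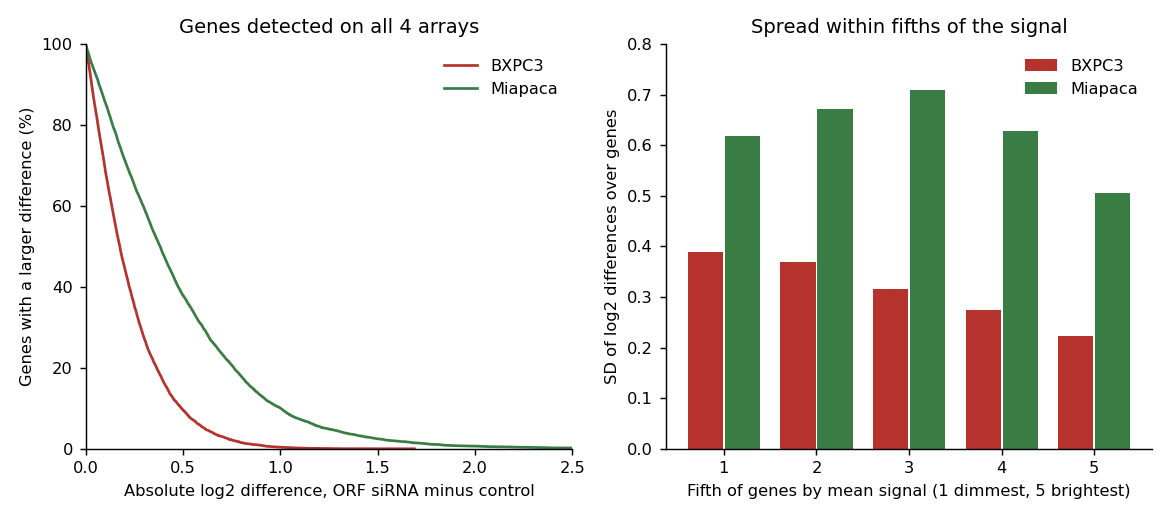
Left, the percentage of genes (y axis) whose absolute log2 difference between ORF siRNA and control siRNA exceeds the value on the x axis, for 8449 genes detected on all 4 arrays, in BXPC3 and in Miapaca. Right, the standard deviation of the log2 differences over genes (bars) within 5 equal bins of the mean signal, where BXPC3 runs between 0.39 in the dimmest and 0.22 in the brightest bin and Miapaca lies above it in each.

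**Figure D2:**
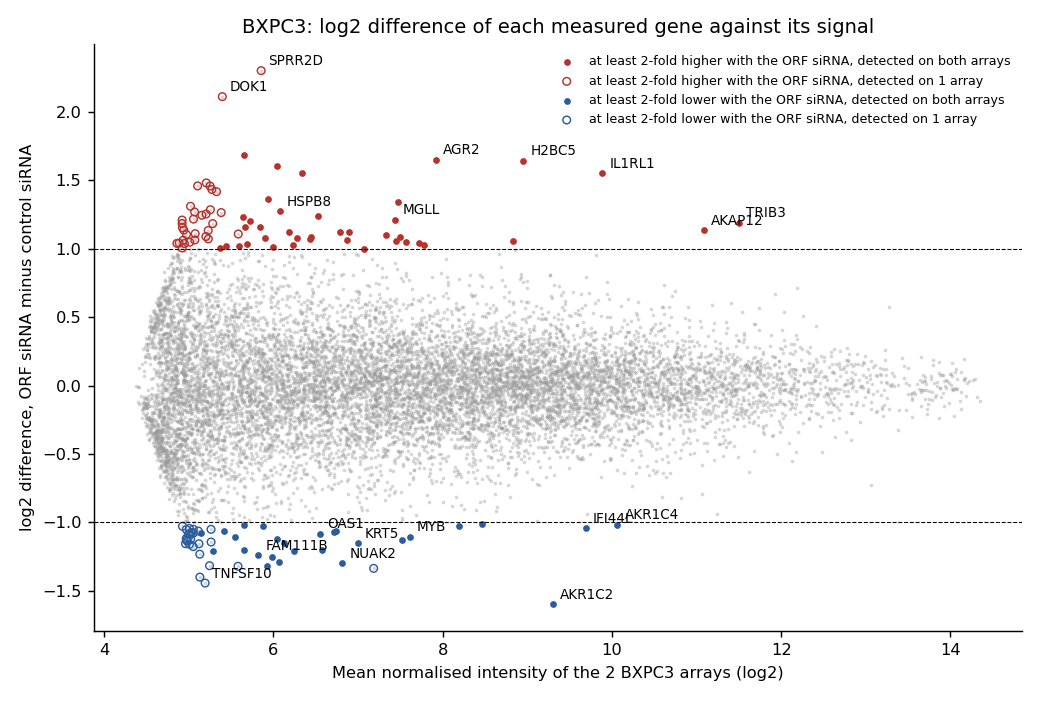
Each point is 1 of the 11252 genes measured in BXPC3, with the mean log2 normalised intensity of the 2 arrays on the x axis and the log2 difference (ORF siRNA minus control siRNA) on the y axis. Dashed lines mark 2-fold, coloured points the 71 genes past it upward and the 52 downward, and open circles those detected on 1 array, which crowd at the dim end.

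Many genes carry several probes, which read the same RNA on the same 2 arrays and show how far a probe can be trusted, though not how far cultures vary. For 2456 genes at least 2 probes were detected on both BXPC3 arrays. The median gap between the brightest and the next probe of a gene was 0.20 on the log2 scale, slightly more than the median difference itself. The signs matched for 62.2% of these genes, and Pearson's r across genes was 0.43 (Spearman's rank correlation 0.38). Genes are not independent replicates, and the pairs share arrays and RNA. For the 1228 pairs whose next probe was in the brighter part r was 0.61, and for the 1228 in the dimmer part 0.30. On the 2035 pairs detected in both lines r was 0.43 in BXPC3 and 0.59 in Miapaca, with the same siRNA. The median gap on these pairs was nonetheless smaller in BXPC3, at 0.19, against 0.33 in Miapaca. The differences themselves were also smaller there, with a median size of 0.16 by the brightest probe, against 0.38 in Miapaca.

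The share of matching signs grew with the size of the difference by the brightest probe, but so did the gap between probes. Genes were sorted by that probe alone, which by construction favours a wider gap and a smaller value by the next probe. The median gap, 0.20 over all pairs, was 0.39 for differences of 1.5- to 2-fold and 0.47 past 2-fold. At 1.5- to 2-fold the median size was 0.68 by the brightest probe and 0.33 by the next, in the direction of the brightest. Past 2-fold these medians were 1.11 and 0.74. For the 1888 genes with the smallest differences the next probe had the same sign in 58.8%. For differences of 1.5- to 2-fold it did in 113 of 153 genes, and past 2-fold in 15 of 18. Of those 18 genes, 11 were past 1.5-fold by the next probe too and 4 past 2-fold. Exceptions were TSPAN7, a tetraspanin, with −1.21 and 0.08, SLC6A9, the glycine transporter GLYT1, with 1.06 and −0.14, and BICDL2, a dynein adaptor, 2.03-fold higher by one probe and at −0.01 by the other. Every probe detected on both arrays was past 1.5-fold higher for 28 genes and past 1.5-fold lower for 22. Beyond those 18, no gene past 2-fold had a further probe detected on both arrays, and 69 of the 123 had a single probe on the array.

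**Figure D3:**
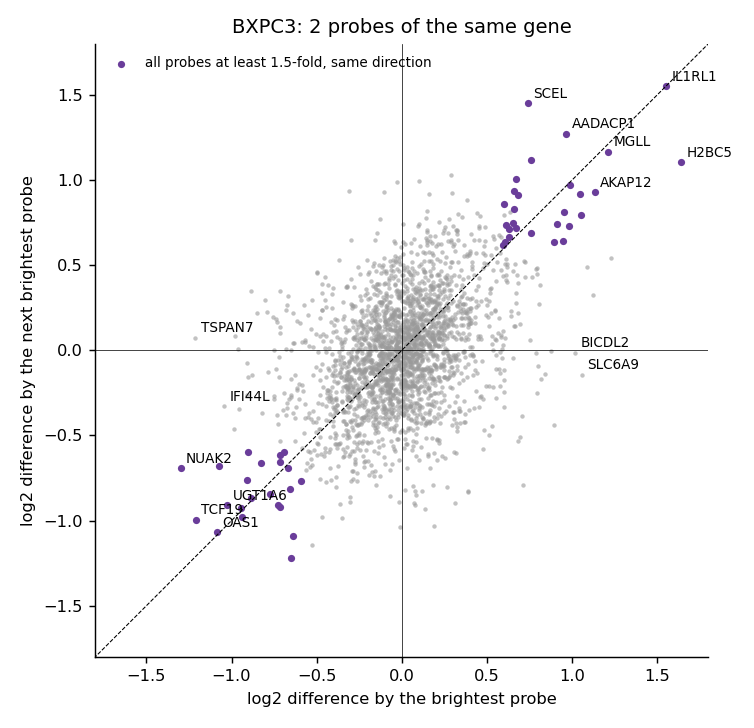
Log2 difference (ORF siRNA minus control siRNA) in BXPC3 by the brightest probe (x axis) and by the next brightest probe (y axis) of the same gene, for 2456 genes with probes detected on both arrays. The dashed line marks equal values, and the purple points are the 50 genes whose probes were all past 1.5-fold in the same direction, 28 upward and 22 downward.

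Among the genes that were highest with the ORF siRNA, IL1RL1 and H2BC5 had the firmest readings. IL1RL1, the receptor for interleukin-33, had a normalised intensity of 1623 with the ORF siRNA, against 553 with the control siRNA. Both of its detected probes gave a log2 difference of 1.55, or 2.93-fold, and it stayed between 1.43 and 1.55 over the alternative settings. H2BC5, a histone H2B gene, had 877 with the ORF siRNA and 281 with the control siRNA, 3.12-fold higher, and 1.11 on the log2 scale by its other probe. AGR2, a disulfide isomerase of the endoplasmic reticulum that helps mucins fold, had 429 and 136 on the same arrays, 3.14-fold higher. The other AGR2 probe was detected on neither array. SPRR2D, a small proline-rich protein of the cornified envelope, headed the list with 129 with the ORF siRNA, against an undetected 26.1 with the control siRNA, at least 4.93-fold higher. DOK1, an adaptor that docks to tyrosine kinases, was at least 4.33-fold higher on the same basis. Both values shrank in other settings, to 0.99 for SPRR2D and 0.83 for DOK1 on the log2 scale with no background correction.

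Others of the 15 highest were dim or rested on a lone probe. ZNF763, a zinc finger gene, had 90.1 with the ORF siRNA and 27.9 with the control siRNA, 3.22-fold higher. YIPF2, a Golgi membrane protein, stood at 1.60 on the log2 scale, GCOM1 at 1.55, AOX1, aldehyde oxidase, at 1.36 and DLC1 at 1.34. All 4 were detected on both arrays. OR4K2, an olfactory receptor gene, PCDH9, a protocadherin, MRTFA, a coactivator of serum response factor, KDM4B, a histone demethylase, and PTPRH, a receptor tyrosine phosphatase, were detected with the ORF siRNA alone. Their lower bounds ran from 2.67-fold for PTPRH to 2.79-fold for OR4K2.

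Several brighter genes were higher by more than 1 probe. AKAP12, a scaffold for protein kinases A and C, had 3227 with the ORF siRNA and 1469 with the control siRNA, 2.20-fold higher, and its other 2 detected probes gave 0.93 and 1.07. MGLL, monoacylglycerol lipase, had 264 and 114, at 1.21 and 1.17 by its probes. RESF1 stood at 1.04 and 0.92, AHNAK2, a giant scaffold protein, at 0.99 and 0.97, and AADACP1, a pseudogene, at 0.97 and 1.27. These genes were named because every probe detected on both arrays was past 1.5-fold higher, so the agreement of their probes was set by that choice. EGFR, the epidermal growth factor receptor, had 464 with the ORF siRNA and 268 with the control siRNA, at 0.79 by its brightest probe and 0.48 and 0.73 by the others.

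AKR1C2, a reductase that inactivates steroid hormones, stood lowest, with 363 with the ORF siRNA and 1099 with the control siRNA, 3.03-fold lower. The value comes from 1 of 6 probes, and the other 5 were detected on neither array. Close relatives of AKR1C2 share most of their sequence, and the probe sequences were not used here, so a signal shared between them is possible. AKR1C4 had 752 with the ORF siRNA and 1522 with the control siRNA, and AKR1C3, which also makes androgens and prostaglandins, had 1360.0 and 2404.5. NUAK2, a kinase related to AMPK, had 71.7 with the ORF siRNA and 176 with the control siRNA, 2.46-fold lower, and −0.69 on the log2 scale by its other probe. TCF19, a factor linked to late G1, stood at −1.21 and −0.99 by the 2 of its 3 probes that were detected on both arrays. It was dim, with 25.7 with the ORF siRNA and 59.4 with the control siRNA, and lay between −1.30 and −0.42 over the settings. UGT1A6, a glucuronosyltransferase, stood at −1.02 and −0.91, also by 2 of 3 probes. Genes of the UGT1A locus share their last exons, so this reading may include its neighbours.

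TNFSF10, the death ligand TRAIL, had an undetected 21.9 with the ORF siRNA, against 61.2 with the control siRNA, at least 2.72-fold lower. SLC8A3, a sodium-calcium exchanger, SEMA6B, a semaphorin, CPT1B, a carnitine palmitoyltransferase, and LAMTOR5-AS1 were likewise detected on the control array alone, with lower bounds from 2.35-fold for LAMTOR5-AS1 to 2.64-fold for SLC8A3. Detected on both arrays were DHRS13, a dehydrogenase (−1.32), B3GLCT, a glucosyltransferase (−1.29), CNTNAP1, a neurexin-like protein (−1.26), FAM111B, a protease (−1.24), and KCTD12, a GABA-B receptor auxiliary subunit (−1.20). TELO2, which stabilises the kinases ATM and mTOR, read 91.6 with the ORF siRNA and 231 with the control siRNA, but the higher reading was the one that missed detection, so its difference of −1.34 is not a bound. Named because every probe detected on both arrays was past 1.5-fold lower were MASTL, the mitotic kinase Greatwall, and FAM3C, a secreted protein. MASTL stood at −0.95 and −0.93, and FAM3C at −0.94 and −0.98.

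**Figure D4:**
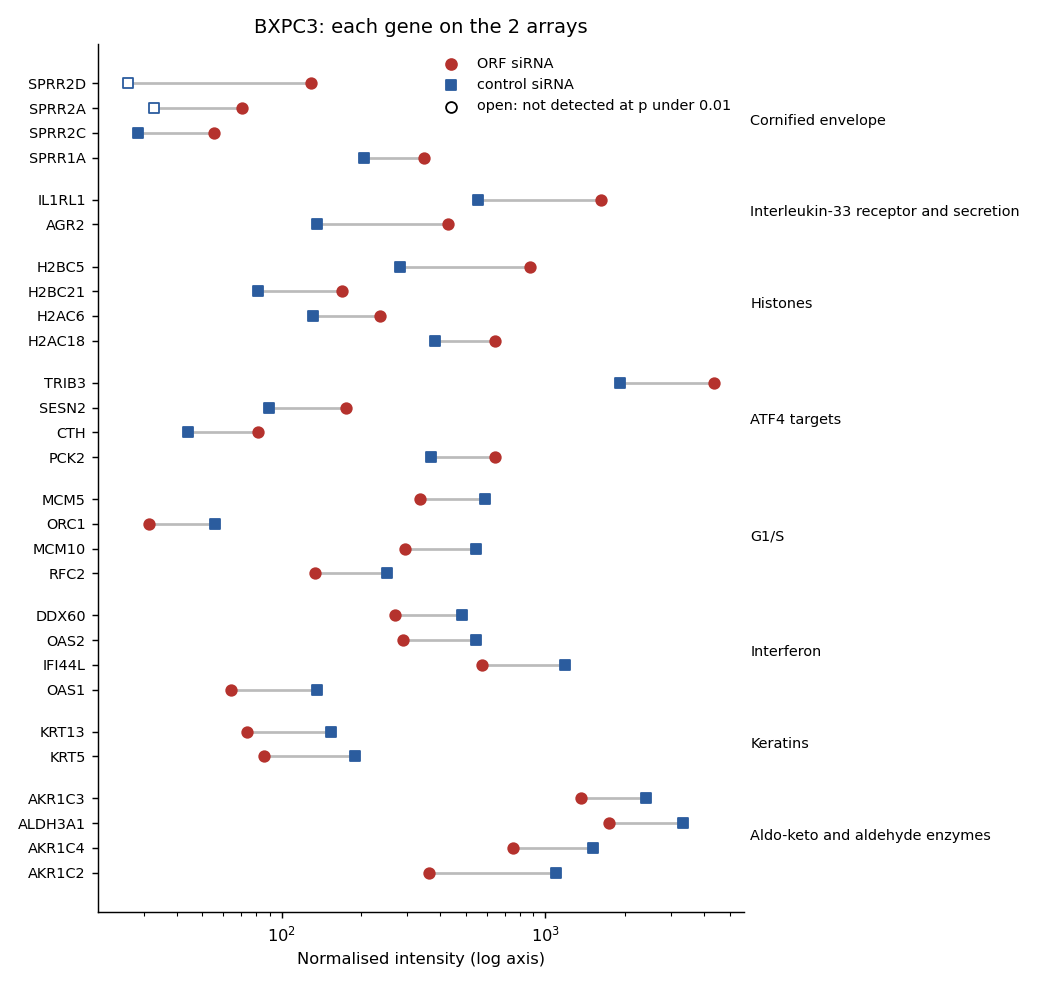
Normalised intensity (log x axis) of 28 genes in BXPC3 on the ORF siRNA array (red circles) and the control siRNA array (blue squares), by group. Open symbols mark arrays where the gene was not detected, as for SPRR2D and SPRR2A with the control siRNA, and each grey line joins the 2 arrays of a gene.

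The gene lists are read against all genes measured, of which 49.3% lay above and 50.6% below the control array. Among lists with at least 10 measured members, those furthest below it were G1/S and DNA replication, interferon-stimulated genes, DNA repair, mitosis and nucleotide synthesis, and those furthest above were histones and the ATF4 response. The median over all genes was −0.01. No list was tested, because 1 array per group gives no spread between cultures.

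**Figure D5:**
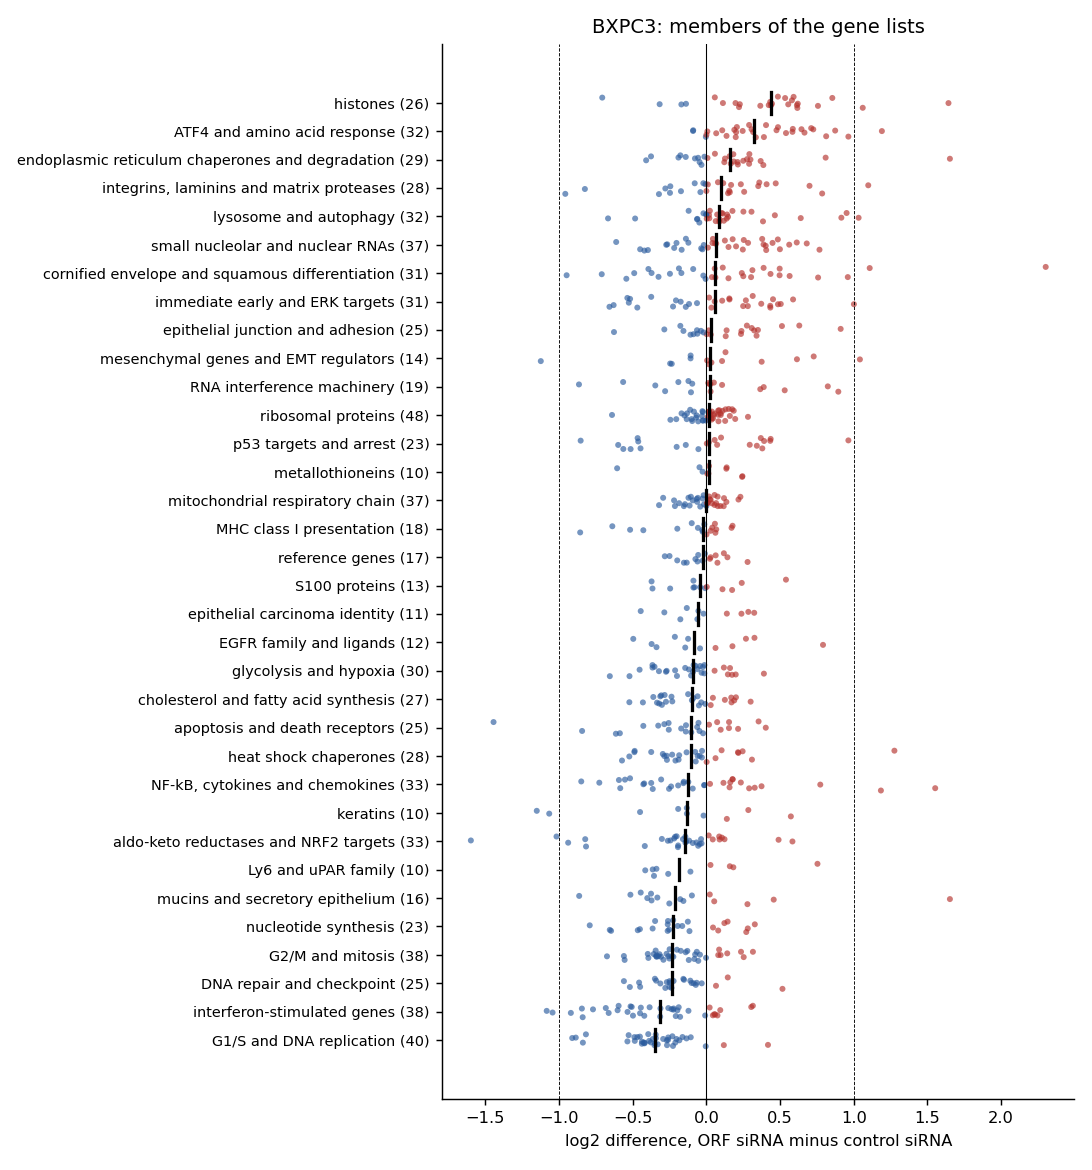
Log2 difference (ORF siRNA minus control siRNA, x axis) of each measured member of the gene lists with at least 10 measured members in BXPC3, with the number measured in parentheses. Red points lie above and blue points below the control array, black bars mark list medians, which run between 0.44 for histones and −0.35 for G1/S and DNA replication, and dashed lines mark 2-fold.

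Interferon-stimulated genes, which encode antiviral proteins, were mostly lower with the ORF siRNA. Of 38 measured members 30 lay below the control array, 10 by at least 1.5-fold, beside 4.87% of all genes. At least 2-fold lower were 2, beside 0.462%, and no member was 1.5-fold higher, beside 5.15%. The list median was −0.31, and −0.41 to −0.22 over the settings. OAS1, a sensor of double-stranded RNA, had 64.5 with the ORF siRNA and 137 with the control siRNA, 2.12-fold lower, with −1.08 and −1.07 by the 2 probes detected on both arrays. IFI44L had 576 and 1188, at −1.04, though its other probe gave −0.33. OAS2, of the same family as OAS1, stood at −0.92 and the helicase DDX60 at −0.84. IFI35 stood at −0.77, while ISG15 (0.05), MX2 (0.06) and IRF9 (0.09) lay close to the control. Of the 8 members with a next probe, 7 were below the control by it, beside 51.4% of all next probes.

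Promoters were searched for the letters of the interferon response motif, GAAA and again GAAA after any 2 bases, on both strands, in RefSeq windows of GRCh38.p14 that run from 250 bases before to 50 after each gene start. It was found in 22 of 31 measured list members with a window, and in 3.65% of all 27305 windows. Members with the motif had a median log2 difference of −0.29 and those without −0.50, so members without these letters also read lower. The windows of list members that were past 1.5-fold lower and hold the motif are shown as examples of these letters, chosen after their values were seen. Each reads 5′ to 3′ on the strand of the match, with the motif in capitals, and is the first match in its promoter.
IFI44L (chr1:78620274-78620303, plus strand): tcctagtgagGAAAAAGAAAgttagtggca
DDX60 (chr4:168318821-168318850, minus strand): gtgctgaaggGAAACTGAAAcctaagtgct
DTX3L (chr3:122564322-122564351, plus strand): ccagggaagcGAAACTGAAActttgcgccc
IFIT5 (chr10:89414513-89414542, minus strand): gtaagcttcaGAAACCGAAActtaatagaa
OAS3 (chr12:112938321-112938350, plus strand): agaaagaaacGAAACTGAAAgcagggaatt
DTX3L, a ubiquitin ligase, stood at −0.84 and OAS3, a further member of the OAS family, at −0.60. IFIT5, an interferon-induced RNA-binding protein, was detected on the control array alone, at least 1.58-fold lower. OAS1 had a window without these letters. A match is a string of letters, not a measured site.

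MHC class I presentation and NF-kB genes next to this group were mixed. HLA-C, a classical class I heavy chain, had 50.6 with the ORF siRNA and 91.6 with the control siRNA, at −0.86, and PSMB8, an immunoproteasome subunit, stood at −0.64 with −1.09 and −0.62 by its other probes. The other class I genes lay closer to the control, with a list median of −0.02 over 18 members. Class I genes are near-identical to each other, which leaves the HLA-C reading uncertain. In the NF-kB, cytokine and chemokine list 20 of 33 members lay below and 13 above, with a median of −0.12. CXCL8, interleukin-8, was bright, with 6664 with the ORF siRNA and 11027 with the control siRNA, at −0.73 and −0.91 by its probes, and IL1RN, the interleukin-1 receptor antagonist, was at −0.85. IL1RL1, TRAF1, an adaptor of TNF receptors (0.77), and CSF1, a macrophage growth factor at least 2.27-fold higher, went the other way.

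Genes of DNA replication were lower almost throughout, by small amounts. Of 40 measured G1/S and replication genes 38 lay below the control array, with a median of −0.35, and −0.44 to −0.31 over the settings. At least 1.5-fold lower were 4, beside 4.87% of all genes, and none was 2-fold lower, beside 0.462%. MCM10, a factor that starts replication, had 294 with the ORF siRNA and 544 with the control siRNA, at −0.89 and −0.87 by its probes. MCM5, a subunit of the replicative helicase, had 335 and 591, at −0.82. ORC1, of the origin recognition complex, stood at −0.84 and RFC2, a clamp loader subunit, at −0.91, but another RFC2 probe gave −0.07. By the next probe 13 of 14 members were below the control, with a median of −0.43. E2F1 (0.42) and CDK4 (0.12) were the 2 members above it.

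The E2F motif, searched as TTT, any 2 bases and CGC on both strands, was in 21 of 36 measured list members with a promoter window and in 6.90% of all windows. Of the 21 with it 20 lay below the control, and of the 15 without it 14. Their median log2 differences were −0.34 with it and −0.26 without it. RFC2, MCM10, ORC1 and MCM5, the 4 members past 1.5-fold lower, are not among those found with the motif. The 4 lowest members that hold the motif are shown, chosen after their values were seen, with the motif in capitals and each on the strand of the match.
E2F2 (chr1:23531292-23531321, minus strand): ggagcgcggcaTTTTCCGCgggagatccga
CDT1 (chr16:88803565-88803594, minus strand): gtgcgtgggacTTTAGCGCggtctccggat
POLE2 (chr14:49688277-49688306, minus strand): tcttaacagggTTTAGCGCcacgcgggcca
GINS2 (chr16:85688967-85688996, plus strand): gcggccgccgtTTTCCCGCcacggcgagag
They were E2F2, itself an E2F factor (−0.54), CDT1, which licenses origins (−0.49), POLE2, a DNA polymerase ε subunit (−0.45), and GINS2, of the helicase complex (−0.44). The interferon motif was in 0 of the 36 windows, and 51 of all 27305 windows hold both motifs.

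Mitosis genes were lower by less. Of 38 measured members 31 lay below the control array, with a median of −0.23. At least 1.5-fold lower was 1, beside 4.87% of all genes. That was CDC25C, the phosphatase that opens mitosis (−0.67), whose other probes gave −0.34 and 0.00. HMMR stood at −0.56 and MAD2L1, of the spindle checkpoint, at −0.55, while CCNB1, cyclin B1 (−0.05), and PRC1 (0.00) stayed at the control level. By the next probe 15 of 17 were below. In DNA repair 22 of 25 lay below with a median of −0.24. None was 1.5-fold lower, beside 4.87% of all genes. In nucleotide synthesis 16 of 23 lay below with a median of −0.23. Only 7 of them had a next probe, and its sign matched the brightest probe in 6. By that probe 3 of the 7 lay below, with a median of 0.00. There SHMT1, a serine hydroxymethyltransferase, stood at −0.79 but at 0.23 by its other probe, and UMPS, of pyrimidine synthesis, and DCK, which phosphorylates deoxycytidine and gemcitabine, at −0.66 and −0.65.

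Histone genes went the opposite way to the replication genes. Of 26 measured, 22 lay above the control array and 8 by at least 1.5-fold, beside 5.15% of all genes, with a list median of 0.44. The median was 0.19 with no background correction and 0.20 in the authors' series matrix values. H2BC21 had 169 with the ORF siRNA and 81.0 with the control siRNA, at 1.06, and H2AC6 had 237 and 131, at 0.85. H2AC18 stood at 0.76 and at 1.12 by another probe. All 3 members with a next probe were above the control by it. The exceptions were the H3 genes H3C3, H3C12 and H3C10 and the H2B gene H2BC6, of which H3C10 alone (−0.17) was detected on both arrays. Many histone genes are near-identical copies whose probes may share signal, and labelling of this kind primes on poly(A) tails, which most histone transcripts of dividing cells lack.

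Targets of ATF4, the factor that answers amino acid shortage and endoplasmic reticulum stress, were higher. Of 32 measured 29 lay above the control array, 9 by at least 1.5-fold, beside 5.15% of all genes, and 0 lower by as much, beside 4.87%, with a median of 0.33, and 0.25 to 0.34 over the settings. TRIB3, a pseudokinase, had 4381 with the ORF siRNA and 1919 with the control siRNA, 2.28-fold higher. SESN2, an amino acid sensor, had 175 and 89.9, at 0.96. CTH, of cysteine synthesis, stood at 0.87 and PCK2, mitochondrial PEP carboxykinase, at 0.81 with 0.14 and 0.39 by its other probes. ASNS, asparagine synthetase, stood at 0.54 and 0.65 by its probes. ATF4 itself was at −0.09. By the next probe 4 of 7 members were above, with a median of 0.04, and the sign matched the brightest probe in 4. These 7 did not repeat the shift of the list by that probe. They include ATF4 itself and leave out TRIB3, SESN2 and CTH, which had no further probe detected on both arrays. The ATF4 motif, searched on both strands as TGATG, any base, AA, any base and C, was in 1 of 28 promoter windows and in 0.879% of all windows.

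Endoplasmic reticulum chaperones had a median of 0.16, with 19 of 29 above. Besides AGR2, DNAJB9, a chaperone of secreted proteins, had 459 with the ORF siRNA and 262 with the control siRNA, at 0.81. Heat shock chaperones had a median of −0.11 with 20 of 28 below, and HSPB8, a small heat shock protein that works with BAG3, stood furthest above at 1.28, with 105 with the ORF siRNA and 43.2 with the control siRNA.

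Aldo-keto reductases and other NRF2 targets, which detoxify carbonyls and oxidants, were lower in 25 of 33 members, with a median of −0.14. The largest differences were in the aldo-keto reductases named above and in ALDH3A1, an aldehyde dehydrogenase, which had 1743 with the ORF siRNA and 3339 with the control siRNA, at −0.94. GPX2, an epithelial glutathione peroxidase, had 1161 and 2045, at −0.82. Other NRF2 targets lay nearer the control or above it. NQO1, a quinone reductase, stood at −0.12, GCLM at −0.03, SRXN1 at 0.11 and TXNRD1, thioredoxin reductase, at 0.49 and 0.64 by its probes. These genes were bright on both arrays.

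Epithelial differentiation genes diverged within each list. The small proline-rich proteins of the cornified envelope were higher, with SPRR1A at 347 with the ORF siRNA and 205 with the control siRNA (0.76), SPRR2C at 55.6 and 28.6 (0.96) and SPRR2A at least 2.16-fold higher, beside SPRR3 at 0.50 and SPRR1B at −0.09. SCEL, sciellin, another precursor of that envelope, stood at 0.74 and 1.45 by its probes. SPRR2 genes are near-identical and their probes may share signal. The whole list had a median of 0.06 with 18 of 31 above, and −0.02 to 0.15 over the settings, and SERPINB3, a squamous protease inhibitor, was at −0.95. Among 10 measured keratins, KRT5, the basal keratin, had 85.7 with the ORF siRNA and 190 with the control siRNA, 2.22-fold lower, and KRT13, of stratified epithelia, 73.6 and 154 (−1.07). KRT8, KRT18 and KRT19, the keratins of simple epithelium, stood at 0.14, −0.02 and −0.13. Mucins and secretory genes had a median of −0.21 with 11 of 16 below, and AGR2 stood furthest above among the other 5.

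Junction genes had a median of 0.03, which was −0.06 under 1 setting, with CTNND1, p120-catenin, at 0.91 and 0.74 and TJP1, the tight junction protein ZO-1, at 0.63 and 0.67 by their probes, while MARVELD3, a tight junction protein, stood at −0.63 with −0.40 and 0.38 by its other probes. In the mesenchymal list 9 of 14 members lay above the control with a median of 0.03, which lay between −0.07 and 0.11 over the settings. COL1A2, a collagen I chain, showed its largest difference, at least 2.18-fold lower, and MYL9, a myosin light chain, was at least 2.06-fold higher, each detected on 1 array. VIM, vimentin, had 119 with the ORF siRNA and 71.6 with the control siRNA, at 0.73, and its other probe was detected on neither array. AXL, a receptor tyrosine kinase, had 1575 and 1029, at 0.61 and 0.54 by its probes. Among adhesion and protease genes MMP1, interstitial collagenase, had 236 and 110 (1.10) and ITGA5, the fibronectin receptor subunit, 239 and 139 (0.79). TIMP3, a metalloproteinase inhibitor (−0.96), and MMP28, epilysin (−0.82 and −0.66), were lower.

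Immediate early genes split. FOS had 322 with the ORF siRNA and 507 with the control siRNA (−0.66), EGR1 2529 and 3912 (−0.63), and JUNB stood at −0.54, while KLF2, a factor of quiescent cells, was 2.00-fold higher. The list median was 0.06 and lay between −0.02 and 0.08 over the settings. In the Ly6 and uPAR family 10 of 18 genes were measured, with a median of −0.18. LYPD5, detected with the ORF siRNA alone, was at least 1.69-fold higher and LY6E, an interferon-inducible member, stood at −0.26.

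Other lists lay close to the control array, where the scaling can turn the sign, with medians of 0.02 for p53 targets, −0.10 for apoptosis, −0.08 for the EGFR family, −0.10 for cholesterol synthesis, −0.09 for glycolysis, 0.09 for lysosome and autophagy, 0.02 for metallothioneins, −0.04 for S100 proteins, 0.02 for RNA interference machinery and 0.07 for small nuclear and nucleolar RNAs. Ribosomal proteins (0.02), the respiratory chain (0.00) and reference genes (−0.03) were also close to 0. LIN28B, which blocks let-7 maturation, stood at 0.82. The EGFR family reading depended on the probe. Of its 12 measured members 5 had a next probe, and by it all 5 lay above the control, with a median of 0.42. ERBB3 stood at −0.14 by its brightest probe and 0.33 by the next, and NRG1 at −0.50 and 0.46.

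The same siRNA was used in Miapaca, on other arrays, though all 5 were normalized together and the choice of probe for a gene was common to both lines. Of 8449 genes detected on all 4 arrays 57.9% had the same sign in both lines. Of the 255 that were at least 1.5-fold higher in BXPC3 180 lay above the Miapaca control, where 52.4% of all genes did, and of the 251 at least 1.5-fold lower 175 lay below it. At least 2-fold higher in both lines were APH1B, ATOSB, H2BC21, H2BC5, KLF2, PRRT3, PTPRH and TRIB3, which make 11.3% of the genes 2-fold higher in BXPC3 and 1.45% of those in Miapaca. In Miapaca 5.07% of all measured genes were 2-fold higher and 5.51% 2-fold lower, and 51.3% lay above and 48.6% below its control. At least 2-fold lower in both were CNTNAP1, FAM111B, GABPA, MYB and PALLD, 9.62% and 0.833% of those lists. CNTNAP1, FAM111B and PALLD were detected on 1 of the 2 Miapaca arrays, so their values there are bounds. GABPA, an ETS factor, stood at −1.11 in BXPC3 and −2.31 in Miapaca. MYB, a proliferation factor, had −1.11 in BXPC3 and was also just past 2-fold lower in Miapaca. PALLD, an actin scaffold, had −1.01 in BXPC3 and at most −1.32 in Miapaca. Values in Miapaca were more extreme for the histones, with H2BC5 at 1.64 in BXPC3 and 3.38 in Miapaca, and nearly equal for TRIB3, at 1.19 and 1.16.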

How the data were processed

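The deposited table holds mean bead intensities that were not normalized between arrays, per the file headers, and detection p-values that the authors deposited beside them. Their series matrix holds normalized linear intensities, and for these the method, like the scanner software and any background subtraction, is not stated here. Of 48107 probes 1 was left out for a missing value. All 5 arrays were corrected with normexp from detection p-values (offset 16), quantile-normalized and put on the log2 scale in limma 3.58.1 (R 4.3.3). Later steps used Python 3.11.15 with pandas 2.3.3 and, for plots, matplotlib 3.10.9. Normalised intensities in the text are these values on the linear scale. Steps were tested on simulated data.

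Symbols came from the platform annotation, updated through RefSeq accessions (29081 probes) or Entrez identifiers (1011). A further 21 were kept, 8 probes had several symbols and 17985 were unlisted. Each gene is read from its brightest probe over the 5 arrays. For a gene detected on 1 array, the other array was set to its own reading or, where that was lower, to the lowest detected signal there, which makes the difference a bound. The number of arrays limits the precision, and no test was possible.

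Named genes were the 15 highest and 15 lowest, LYNX1, SLURP2, measured nicotinic subunits, up to 4 members of each of 37 gene lists past 1.5-fold, 15 genes with all probes past 1.5-fold, and genes past 2-fold in both lines with the ORF siRNA. Some are left out. Other list members and probe exceptions were named after their values were seen. Members and lists were chosen with earlier results of these data known. The 9 alternatives tried are given in the closing section. Promoter sequences are RefSeq's (GRCh38.p14).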

Additional observations from a re-analysis of the deposited data

Results flagged for a closer look

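For 5 named genes and 2 gene lists the ORF siRNA array lay on opposite sides of its control in BXPC3 and in Miapaca, by at least 1.5-fold in each line for genes and by a list median of at least 0.2 for lists. With 1 array per group this difference between the lines was not tested, and dose, reagent and medium differed too. FOS stood at −0.66 in BXPC3 and 1.18 in Miapaca, and EGR1 at −0.63 and 0.83, so these immediate early genes were lower than control in BXPC3 and higher in Miapaca. AXL, a receptor tyrosine kinase, stood at 0.61 in BXPC3 and −0.70 in Miapaca. SNORD95, a small nucleolar RNA near the detection limit in BXPC3, stood at −0.61 and 0.72. TELO2 stood at −1.34 and 0.96, and in both lines its brighter array missed detection. The mucin and secretory list had medians of −0.21 in BXPC3, over 16 measured members, and 0.49 in Miapaca, over 4, of which 2 lay above and 2 below the control. The fibroblast, endothelial and blood cell marker list had medians of −0.50 and 0.64, over 4 measured members in BXPC3, where COL1A2 (at least 2.18-fold lower) and CD14, a monocyte marker (2.00-fold lower), were the lowest. With a detection p under 0.05 its BXPC3 median was 0.0646, so the opposite direction did not hold there.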

How the results depend on the processing

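No paired analysis was possible because BXPC3 holds 1 array per group. A fit paired by cell line over both lines would give their mean, another quantity, and was not run. The 2-fold counts in BXPC3, 71 genes higher and 52 lower, became 44 and 90 with median scaling, 39 and 27 among genes detected on both arrays, 12 and 3 with an offset of 50, 5 and 1 with no background correction, and 6 and 1 in the authors' series matrix values. The spread of 0.35 became 0.20 with no background correction and 0.21 in the series matrix values. A larger offset and uncorrected background both shrink differences of dim genes by construction. Counts and spread stayed within 1.5 times of these values with neqc on the 2 BXPC3 arrays alone, a detection p under 0.05, the mean over detected probes and no bound. Of 333 list medians under alternatives 325 moved by less than the median gap between probes of a gene (0.20). Several medians near 0 changed sign, and of those at least 0.2 from 0 the one that did was the fibroblast, endothelial and blood cell list, at 0.0646 with a detection p under 0.05, where more genes entered. Of 1012 values of named genes 785 moved by less than that gap, and 0 of those past 1.5-fold changed sign. The values that moved further were not spread evenly over the settings. Of 114 named genes 78 did so with no background correction, 75 in the series matrix values and 57 with an offset of 50. With the mean over detected probes 17 did. The histone median was 0.19 with no background correction and 0.20 in the series matrix values.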

Other observations

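Further genes were past 1.5-fold in BXPC3 by each probe detected on both arrays. Higher with the ORF siRNA were SLC4A7, a bicarbonate transporter (1.06 and 0.79), FYN, a Src family kinase (0.95 and 0.64), IL37, an anti-inflammatory cytokine (0.98 and 0.73), TGFBR2, the type II TGF-β receptor (0.76 and 0.69), FBXO32, a ubiquitin ligase subunit (0.61 and 0.74), and HBP1, a transcriptional repressor (0.63 and 0.71). TGFBR2 was bright, with a normalised intensity of 1278 with the ORF siRNA and 754 with the control siRNA. Lower were SLF1, which brings SMC5/6 to damaged DNA (−1.07 and −0.68), GPAM, of triglyceride synthesis (−0.91 and −0.76), and PGAM1, a glycolytic mutase (−0.66 and −0.81). SGK1, a kinase induced by glucocorticoids and serum, had 1264 with the ORF siRNA and 2009.7 with the control siRNA and lay between −0.98 and −0.67 over 3 probes.

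In the lysosome and autophagy list 4 of 32 members were at least 1.5-fold higher, beside 5.15% of all genes, and 1 was as much lower, beside 4.87%. ULK1, the kinase that starts autophagy, had 1251 with the ORF siRNA and 647 with the control siRNA, at 0.95 and 0.81 by its probes. WIPI1, which binds the forming membrane, stood at 0.92 and GABARAP, a membrane-conjugated ATG8 protein, at 1.03, each by 1 detected probe. ATG5 went the other way at −0.67. The whole list had 23 members above the control array, with a median of 0.09 that lay between −0.01 and 0.09 over the settings. These genes were named after their values were seen.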
